A study of Mus musculus with 8 samples.

Results

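The subcortical maternal complex is a protein assembly beneath the surface of the mouse oocyte and early embryo, and its 6 genes Nlrp5, Tle6, Ooep, Khdc3, Padi6 and Zbed3 were taken by symbol from the 55487 genes of the deposited table. All 6 were found, and all 6 passed the filter on low counts that left 13146 genes for testing. RNA was sequenced from mouse embryos at the 2-cell stage to ask how knockdown of Polq, which encodes DNA polymerase theta, affects the transcriptome. The 4 knockdown-labelled samples (genotype label polq knockdown) came from zygotes injected with the RNA-cutting nuclease CasRX and a guide RNA against Polq, and the 4 control samples (genotype label WT) from zygotes injected with CasRX. Injection was 20 h after human chorionic gonadotropin, RNA was taken 10 h later, and each sample was a pool of 5 embryos. Both groups thus carried CasRX, and the labels name no control guide, strain or age of the parents. The 4 samples in each group are described as biological replicates, without saying whether they shared a mating or an injection day, and p-values measure the spread between these pools.

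The complex is built from protein made in the growing oocyte, and its messenger RNAs are among the maternal transcripts that are degraded around the 2-cell stage while many of the proteins persist in the embryo. In mice, females lacking Nlrp5, Tle6, Ooep or Padi6 produce embryos that arrest at early cleavage, which makes these maternal-effect genes. Loss of Khdc3 or Zbed3 has milder effects on cleavage, with faulty chromosome segregation described for Khdc3.

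Knockdown-labelled replicates 1 to 4 held 4726159, 8627403, 8100969 and 33650050 counts, and the controls held 33311665 to 43748621, so that 3 knockdown-labelled libraries were much shallower than every other. Mitochondrially encoded genes took 20.2% to 27.7% of the counts in knockdown-labelled libraries and 17.8% to 26.9% in controls. Polq, the targeted gene, was at 31.3 ± 9.47 counts per 1000000 (CPM) in knockdown-labelled libraries and 38.4 ± 5.25 CPM in controls (SD, n = 4 each), with overlapping ranges (log2 fold change −0.32, SE 0.34, edgeR adjusted p = 1.0). Without the 3 shallow libraries the Polq log2 fold change was 0.073. The median in that fit was −0.36 over 18664 genes tested, a larger set than the 13146 of the fit with all libraries. The groups are therefore named by their labels, and each fold change is knockdown-labelled over control. Levels are CPM of the library total unless another scale is named, intervals on single levels are exact Poisson 95% intervals that cover counting error only, and fold changes come from edgeR with TMM scaling, which uses a trimmed mean of log ratios between libraries.

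Embryo identity was checked on marker genes. The 11 markers of the 2-cell stage, such as Zscan4d, Tcstv3 and Zfp352, were all present, and together they summed to 650 to 1308 CPM in knockdown-labelled libraries and 579 to 1082 CPM in controls. Of 15 markers of cumulus cells, the somatic cells around the oocyte, 9 had no count in any library, Fshr, Has2, Ptx3 and Foxl2 among them. The summed cumulus level was 6.14 to 18.6 CPM in knockdown-labelled libraries and 6.09 to 30.3 CPM in controls, almost all of it from Kitl, Tnfaip6, Cyp19a1 and Star. Of 6 sperm markers 5 had no count, and Prm2 reached 7.83 CPM in knockdown-labelled libraries and 6.40 CPM in controls. Of 6 blood markers 3 had no count, and Hba-a1 and Hba-a2 passed the filter, the list summing to 9.26 to 12.9 CPM in knockdown-labelled libraries and 4.0 to 17.1 CPM in controls. The part of these cells in the results was not tested.

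The 6 genes lie on 5 chromosomes in GRCm38 and are all annotated as protein-coding. Nlrp5, which encodes the leucine-rich NLR protein MATER, is on chromosome 7, plus strand, between 23385889 and 23441922, with 16 separate exonic regions. Tle6, which encodes a Groucho-family protein of the complex, is on chromosome 10, minus strand, between 81590904 and 81601073, with 15. Padi6, a peptidylarginine deiminase relative needed for the cytoplasmic lattices of the oocyte, is on chromosome 4, minus strand, between 140727355 and 140742643, with 18. Zbed3, a zinc finger protein of the complex, is on chromosome 13, plus strand, between 95323612 and 95337841, with 4 exonic regions. The genes Snora47 and Gm22661 overlap its span on the same strand. Ooep and Khdc3, relatives that carry a KH-type domain and are also called FLOPED and FILIA, are both on chromosome 9. Ooep lies on the minus strand from 78376109 to 78378725, with 3 exonic regions, and Khdc3 on the plus strand from 73101836 to 73104438, with 4.

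The promoters of Ooep and Khdc3 are shown because these relatives stood far apart in RNA level, with Ooep 26.5 to 132 times as high as Khdc3 per exon length over the 8 libraries. Each runs 5′ to 3′ on the gene's own strand from 250 bases before to 50 bases after the RefSeq start (GRCm38.p6). Capitals mark matches to the E-box (CANNTG, the motif class of the oocyte factor FIGLA) and to the NOBOX element (TAATTG), searched on both strands.
Ooep, minus strand, chr9:78378539-78378838: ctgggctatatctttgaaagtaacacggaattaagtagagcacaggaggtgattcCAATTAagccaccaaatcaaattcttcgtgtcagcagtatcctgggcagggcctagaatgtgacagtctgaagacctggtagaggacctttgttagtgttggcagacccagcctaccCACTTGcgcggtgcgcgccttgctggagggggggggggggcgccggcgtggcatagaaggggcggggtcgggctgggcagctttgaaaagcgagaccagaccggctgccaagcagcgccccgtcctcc
Khdc3, plus strand, chr9:73102148-73102447: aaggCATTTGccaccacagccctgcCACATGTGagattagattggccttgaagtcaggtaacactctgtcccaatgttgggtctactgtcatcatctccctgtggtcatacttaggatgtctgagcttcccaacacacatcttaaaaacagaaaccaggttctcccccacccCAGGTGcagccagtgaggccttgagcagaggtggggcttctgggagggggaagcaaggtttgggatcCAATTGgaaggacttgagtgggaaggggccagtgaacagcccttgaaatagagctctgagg
The Ooep window held 1 E-box and 1 NOBOX element, and the Khdc3 window held 5 E-boxes, of which 2 overlap, and no NOBOX element. Of 32851 promoter windows of the same length, 72.3% held an E-box and 8.0% (2628) a NOBOX element. All 6 genes had a window in the RefSeq table, every window held at least 1 E-box, and Padi6 was the other gene with a NOBOX element. A match describes the letters and not a bound site.

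The 6 genes covered a wide range of RNA levels, with the same leaders in every library. Because a longer RNA collects more reads, levels were compared between genes as CPM per kb of annotated exon. On this scale Zbed3 averaged 142 ± 44.1, Ooep 68.3 ± 29.6, Nlrp5 10.4 ± 2.25, Padi6 6.48 ± 2.83, Tle6 2.98 ± 1.91 and Khdc3 1.62 ± 1.01 (SD, n = 8 libraries). Zbed3 was first and Ooep second in 8 of 8 libraries, and Nlrp5 the third in 7 of 8, with Padi6 ahead of it in knockdown-labelled replicate 2. The lowest Ooep level, 31.8 CPM per kb, was above the highest Nlrp5 level, 13.8 CPM per kb. Zbed3 and Ooep overlapped across libraries, although Zbed3 was higher within each of them. Padi6 overlapped with Nlrp5, and Padi6, Tle6 and Khdc3 overlapped and changed places, Khdc3 being last in 5 libraries and Tle6 in 3. With the longest transcript as the length, Nlrp5 was the third in 8 of 8 libraries, and Khdc3 was last in 6, Tle6 in 1 and Padi6 in 1.

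**Figure D1:**
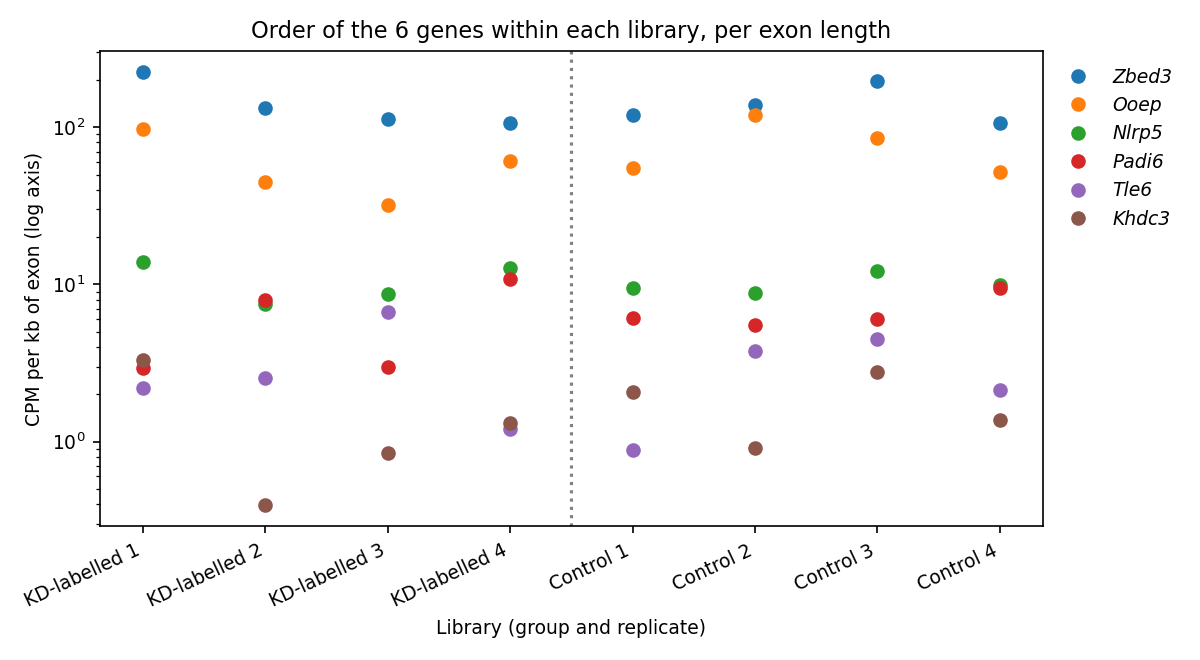
CPM per kb of exon (log axis) of the 6 genes in each knockdown-labelled and each control library, 1 point for each gene and library. Zbed3 and Ooep are on top in all 8 libraries, and Padi6, Tle6 and Khdc3 change places.

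Zbed3 gave 64.2% ± 6.34 of the summed per-kb level of the 6 genes in knockdown-labelled libraries and 58.6% ± 6.26 in controls, and Ooep 25.6% ± 5.44 and 32.0% ± 7.52, in the same order (SD, n = 4 each). Khdc3 gave 0.590% ± 0.318 in knockdown-labelled libraries and 0.765% ± 0.320 in controls. These shares overlapped between the groups for all 3 genes. In CPM, the 6 genes summed to 794, 455, 392.2 and 463 in knockdown-labelled replicates 1 to 4 and to 452, 634, 714 and 431 in control replicates 1 to 4. The highest and the lowest of these 8 sums were both knockdown-labelled libraries, replicates 1 and 3.

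No gene of the complex passed the test between the groups. The edgeR quasi-likelihood test called 0 of 13146 genes (0%) at an adjusted p under 0.05, and so 0 of the 6. At an unadjusted p under 0.05 it gave 369 genes (2.81%) and again 0 of the 6, the smallest p among them being 0.259 for Ooep. At the spread of these libraries the lack of a call does not show that levels were equal. DESeq2 called 20 of 13002 genes (0.154%) and limma-voom 0, none of them in the complex. The 2 groups overlapped in the level of each of the 6 genes, as they did in all but 365 of the 13146 genes (2.78%). Of the 6 log2 fold changes 4 were below 0, with a median of −0.064, against 53.4% below 0 and a median of −0.047 over all genes tested. Levels are averages over pooled embryos and relative to the library total. The number of blastomeres and the total RNA in each were not measured.

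**Figure D2:**
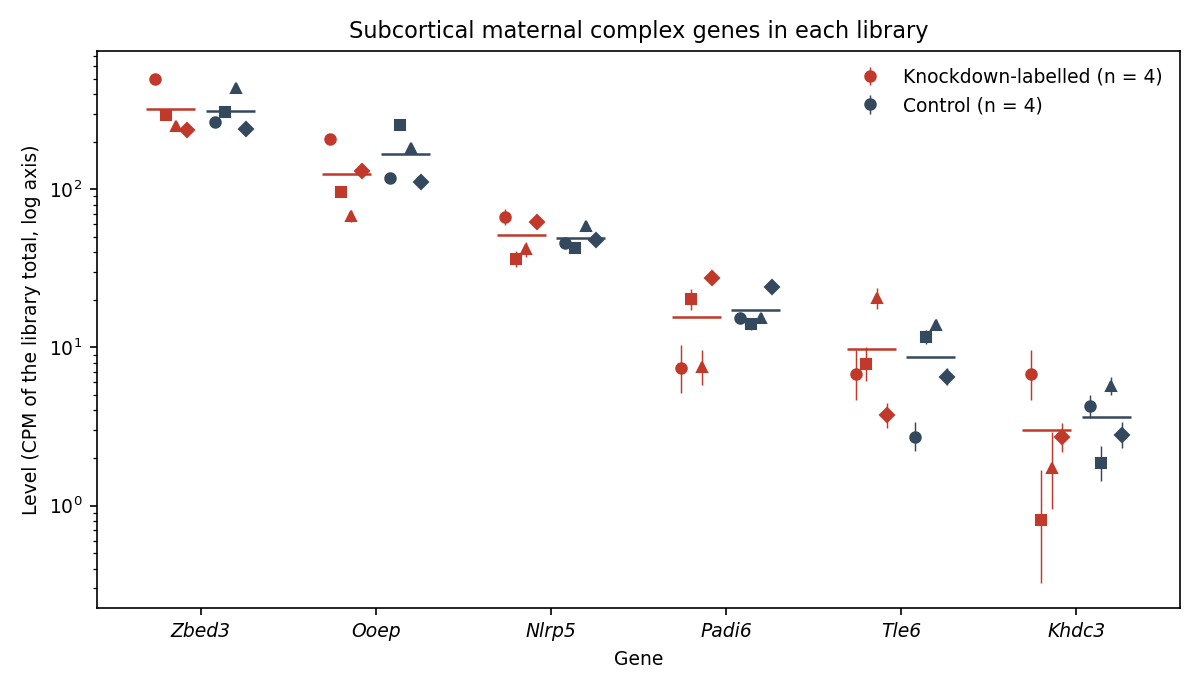
Level of each gene in CPM of the library total (log axis), knockdown-labelled libraries on the left and controls on the right of each pair. Marker shapes give replicates 1 (circle), 2 (square), 3 (triangle) and 4 (diamond), vertical bars are 95% counting intervals and horizontal lines group means; the groups overlap in every gene.

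Nlrp5 protein forms the core of the complex with those of Ooep and Tle6. Its levels were 66.9, 36.2, 41.8 and 61.9 CPM in knockdown-labelled replicates 1 to 4, against 46.0, 42.8, 58.8 and 47.9 CPM in control replicates 1 to 4. Knockdown-labelled replicates 1 and 4 were above all controls and replicates 2 and 3 below all controls, so that the knockdown-labelled libraries enclosed the control range. The means were 51.7 ± 15.0 CPM in knockdown-labelled libraries and 48.9 ± 6.94 CPM in controls (SD, n = 4 each). The log2 fold change was 0.049 (SE 0.27, adjusted p = 1.0), and its 95% interval ran from 68.2% to 157% of the control level. Its sign turned without knockdown-labelled replicate 1 (−0.060) or 4 (−0.096).

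Ooep showed the lowest fold change of the 6. Its levels were 208, 95.9, 68.0 and 131 CPM in knockdown-labelled replicates 1 to 4, against 117, 256, 182 and 111 CPM in control replicates 1 to 4. Replicates 2 and 3 of the knockdown-labelled group were below all controls, and replicates 1 and 4 lay within the control range. The means were 126 ± 60.6 CPM in knockdown-labelled libraries and 167 ± 67.5 CPM in controls (SD, n = 4 each). The log2 fold change was −0.47 (SE 0.39, adjusted p = 1.0), or 72.0% of control with a 95% interval from 39.1% to 133%. It stayed below 0 with any 1 library left out, from −0.77 without knockdown-labelled replicate 1 to −0.12 without control replicate 2, the library with the highest Ooep level, and was −0.26 without knockdown-labelled replicate 3.

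Tle6 varied more between replicates than between groups. Its levels were 6.77, 7.88, 20.5 and 3.71 CPM in knockdown-labelled replicates 1 to 4, against 2.73, 11.6, 13.9 and 6.54 CPM in control replicates 1 to 4. The highest and the lowest control differed 5.10-fold, and their 95% counting intervals, 12.8 to 15.1 CPM and 2.20 to 3.35 CPM, did not touch. The means were 9.71 ± 7.40 CPM in knockdown-labelled libraries and 8.70 ± 5.04 CPM in controls (SD, n = 4 each). The log2 fold change was 0.077 (SE 0.72, adjusted p = 1.0), with a 95% interval from 34.4% to 324% of control. Without knockdown-labelled replicate 3 that group's mean was 6.12 CPM and the log2 fold change −0.54, and the sign also turned without control replicate 1 (−0.22) or 4 (−0.066).

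Padi6 had knockdown-labelled libraries both below and above the control range. Its levels were 7.41, 20.2, 7.53 and 27.3 CPM in knockdown-labelled replicates 1 to 4, against 15.4, 14.03, 15.3 and 24.1 CPM in control replicates 1 to 4. Knockdown-labelled replicates 1 and 3 were below all controls, replicate 2 was within their range and replicate 4 above it. The low values rest on 35 and 61 counts and have 95% counting intervals of 5.16 to 10.3 CPM and 5.76 to 9.67 CPM, below the lowest control. The means were 15.6 ± 9.82 CPM in knockdown-labelled libraries and 17.2 ± 4.62 CPM in controls (SD, n = 4 each). The log2 fold change was −0.11 (SE 0.53, adjusted p = 1.0), with a 95% interval from 40.5% to 211% of control, and it was above 0 without knockdown-labelled replicate 1 (0.14), knockdown-labelled replicate 3 (0.14) or control replicate 4 (0.049).

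Zbed3, the gene with the most RNA, was nearly level between the groups. It was at 499, 294, 253 and 237 CPM in knockdown-labelled replicates 1 to 4, against 266, 307, 439 and 239 CPM in control replicates 1 to 4. Knockdown-labelled replicate 1 and control replicate 3 stood above the rest of their groups. The means were 321 ± 121 CPM in knockdown-labelled libraries and 313 ± 88.6 CPM in controls (SD, n = 4 each), and the log2 fold change was −0.016 (SE 0.27, adjusted p = 1.0), with a 95% interval from 64.9% to 151% of control. Its sign followed the scaling, being 0.0076 when scaled by DESeq2's size factors and 0.035 when scaled by library totals. It was also above 0 without knockdown-labelled replicates 2 (0.0040), 3 (0.097) or 4 (0.075) and without control replicates 2 (0.019) or 3 (0.17).

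Khdc3 had the lowest mean level of the 6, although Tle6 was lower in control replicate 1 and equal in knockdown-labelled replicate 1. Khdc3 had 32, 7, 14 and 90.67 expected counts in knockdown-labelled replicates 1 to 4 and 65 to 250 in controls. Its levels were 6.77, 0.811, 1.73 and 2.69 CPM in knockdown-labelled replicates 1 to 4, against 4.24, 1.86, 5.71 and 2.80 CPM in control replicates 1 to 4. Replicate 1 of the knockdown-labelled group was the highest of all 8 libraries and replicate 2 the lowest, and the 7 counts of replicate 2 allowed 0.326 to 1.67 CPM. The means were 3.0 ± 2.63 CPM in knockdown-labelled libraries, or 1.74 CPM without replicate 1, and 3.65 ± 1.69 CPM in controls (SD, n = 4 each). The log2 fold change was −0.34 (SE 1.04, adjusted p = 1.0), with a 95% interval from 15.9% to 391% of control. It stayed below 0 with any 1 library left out, between −1.05 without knockdown-labelled replicate 1 and −0.028 without knockdown-labelled replicate 2. It was −0.15 without knockdown-labelled replicate 3, −0.052 without control replicate 3 and −0.53 without control replicate 2.

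**Figure D3:**
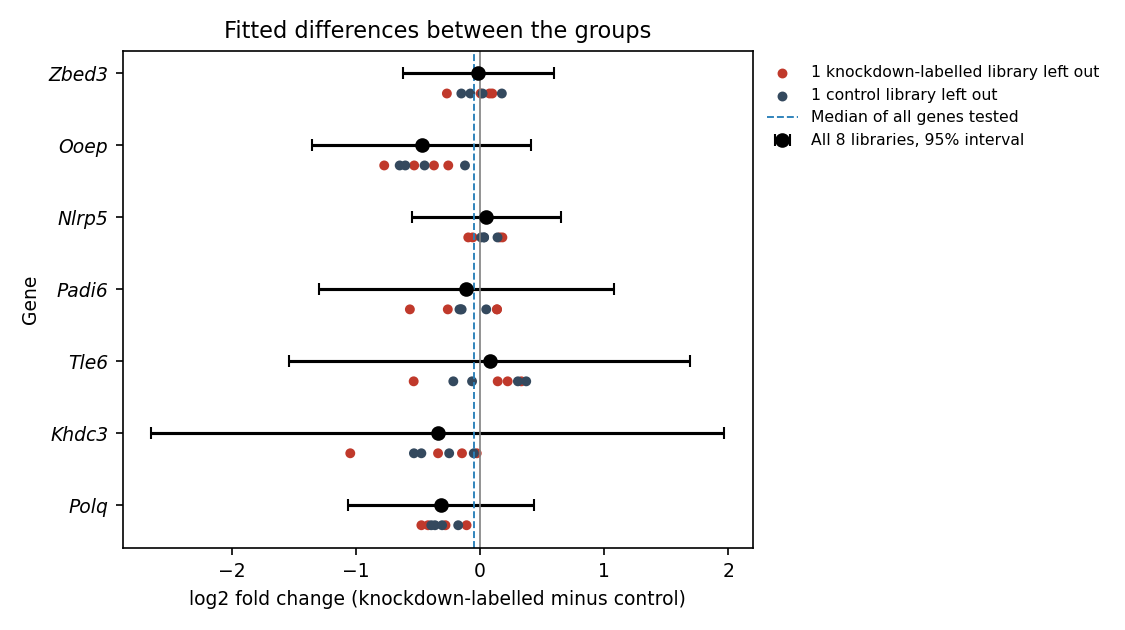
Log2 fold change (knockdown-labelled minus control) of the 6 genes and Polq with 95% intervals in black, and the value with 1 library left out in red (knockdown-labelled) or dark blue (control). The dashed line is the median of all genes tested. Every interval includes 0, and the widest is that of Khdc3.

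Knockdown-labelled replicate 4 was the library of that group with a depth like that of the controls. Against the 4 controls, assuming that it varies as they do, its log2 fold change was 0.41 for Nlrp5, −1.18 for Tle6, −0.31 for Ooep, −0.36 for Khdc3, 0.74 for Padi6 and −0.34 for Zbed3. Tle6 and Padi6 thereby stood on the other side of 0 from the fit with all libraries. The median over all 18664 genes in this fit was −0.36, against −0.047 over the 13146 genes tested with all libraries. The filter on low counts admitted more genes here, so the medians cover different genes. Ooep, Khdc3 and Zbed3 lay close to −0.36. Whether they differed from genes of like level in this fit was not tested. The part of depth in these values was not tested.

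Part of the Khdc3 signal can be assigned to another gene. Gm20509, a predicted protein-coding gene on the same strand of chromosome 9 (73102470 to 73117920), shares 790 of its 1016 exonic bases (77.8%) with Khdc3, which is 38.5% of the 2050 exonic bases of Khdc3. Their second exon is identical in both and lies in the coding sequence, and it is shown because reads within it cannot be placed on either gene alone.
Khdc3 and Gm20509, plus strand, chr9:73102830-73103009 (GRCm38): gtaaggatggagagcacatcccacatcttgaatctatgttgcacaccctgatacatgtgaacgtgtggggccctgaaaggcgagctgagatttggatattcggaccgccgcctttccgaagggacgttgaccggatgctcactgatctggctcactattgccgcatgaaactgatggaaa
Gm20509 had 42.31 expected counts in knockdown-labelled replicate 4 and 25.92 in control replicate 1, and 0 in the other 6 libraries. The deposited Khdc3 count was not a whole number in the same 2 libraries. Gm20509 held 31.8% of the summed count of both genes in knockdown-labelled replicate 4 and 15.5% in control replicate 1. With the counts summed, an alternative chosen after seeing the data, the levels of these 2 libraries were 3.95 and 5.02 CPM, and the log2 fold change was −0.26 (adjusted p = 1.0). Exons 5 to 7 of Gm20509 lie beyond Khdc3, and its span also overlaps Rsl24d1 on the same strand. Which exons gave the Gm20509 counts was not tested, so the sum may hold reads from outside Khdc3.

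**Figure D4:**
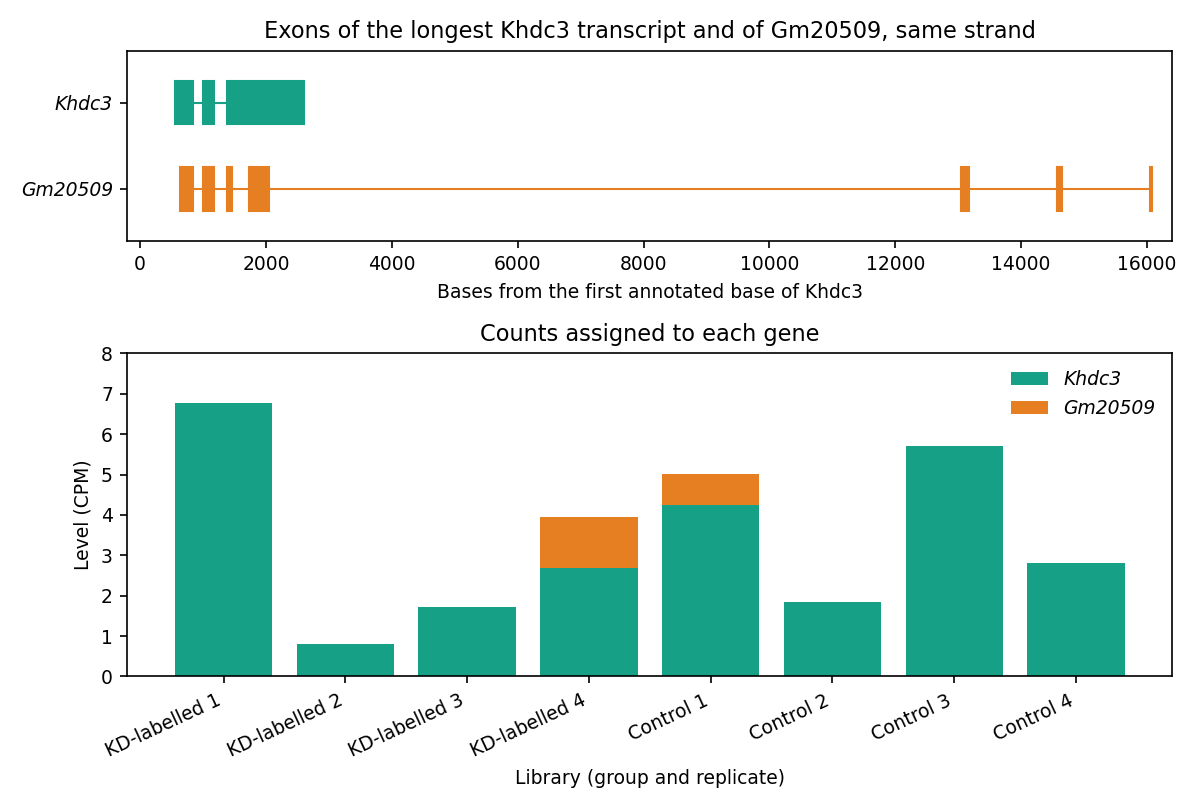
Top, exons (boxes) of the longest Khdc3 transcript and of Gm20509 by distance in bases from the first annotated base of Khdc3. Bottom, level in CPM assigned to each gene in each library; Gm20509 received counts in knockdown-labelled replicate 4 and control replicate 1.

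The spread between replicates was compared with that of other genes of like level. The coefficient of variation (SD over mean) of Nlrp5 was 29.0% in knockdown-labelled libraries and 14.2% in controls, and that of Padi6 63.0% and 26.8%, in the same order. Over the 4739 tested genes at 10 to 100 CPM the median was 39.4% in knockdown-labelled libraries and 41.2% in controls. Ooep varied by 48.2% and Zbed3 by 37.8% in knockdown-labelled libraries, and by 40.5% and 28.3% in controls. The median of the 1209 genes at 100 to 1000 CPM was 22.2% in knockdown-labelled libraries and 23.4% in controls. The Zbed3 values rest on 1 library in each group: they were 11.2% once knockdown-labelled replicate 1 was left out and 12.8% once control replicate 3 was. Each of these was the highest library of its group. Values with a library left out cannot be set against the medians, which are from all 4 libraries. Ooep varied by 31.9% without knockdown-labelled replicate 1. Tle6 and Khdc3 varied by 76.1% and 87.6% in knockdown-labelled libraries and by 57.9% and 46.2% in controls, where the 6182 genes at 1 to 10 CPM had medians of 83.2% in knockdown-labelled libraries and 83.8% in controls. Single libraries also carried other values. In knockdown-labelled libraries Tle6 varied by 35.2% without replicate 3 and Khdc3 by 54.0% without replicate 1. In controls Tle6 varied by 35.3% without replicate 1, Nlrp5 by 5.69% without replicate 3 and Padi6 by 5.23% without replicate 4. As folds, the 95% interval of a group difference reached 1.52-fold either way for Nlrp5 and Zbed3, 1.84-fold for Ooep, 2.28-fold for Padi6, 3.07-fold for Tle6 and 4.95-fold for Khdc3.

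No pair of the 6 genes passed a test of correlation over the libraries. Among the 15 pairs, Pearson's r of log2(CPM + 1) over the 8 libraries was above 0 in 7 and below 0 in 8. In exact permutation tests 0 pairs passed after Benjamini-Hochberg adjustment over the 15, by Pearson's r or by Spearman's rho, and 1 had an unadjusted p under 0.05. That pair was Nlrp5 and Khdc3 (r = 0.83, exact permutation p = 0.0119, adjusted 0.179; rho = 0.83, p = 0.0154, adjusted 0.231). Their r was 0.94 without the 2 libraries farthest from the median Nlrp5 level. Padi6 and Zbed3 had the lowest r (r = −0.52, exact permutation p = 0.171, adjusted 0.416; rho = −0.71, p = 0.0576, adjusted 0.427; r = −0.67 without 2 libraries).

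Of 2111 other genes at a mean of at least 50 CPM and with no predicted-gene symbol, those named as most like the mean log2(CPM + 1) of the 6 genes over the 8 libraries were Ccndbp1 (r = 0.95), Pttg1 (0.94), Ifitm3 (0.92) and Uchl1 (0.91). These are among the highest of 2111 values over 8 libraries that share depth and scaling, and are given as a description. Ccndbp1 was at 525 ± 99.7 CPM in knockdown-labelled libraries and 565 ± 67.6 CPM in controls, and Pttg1, which encodes securin, the inhibitor of sister chromatid separation, at 2885 ± 444 and 3019 ± 443 CPM, in the same order.

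No gene whose protein associates with the complex or the cytoplasmic lattices passed the test either. In that list of 6 genes, all tested, 5 of the 6 log2 fold changes were below 0 with a median of −0.50 (−0.79 without knockdown-labelled replicate 1, −0.27 without knockdown-labelled replicate 2), against 53.4% and −0.047 over all genes tested. Nlrp4f, an oocyte NLR protein found with the complex, was at 95.1 ± 45.8 CPM in knockdown-labelled libraries and 122 ± 25.9 CPM in controls (log2 fold change −0.41, SE 0.33). Nlrp14 was at 66.8 ± 40.5 and 95.4 ± 30.5 CPM (−0.58, SE 0.43), and Dnmt1, the maintenance DNA methyltransferase, at 11.5 ± 6.04 and 19.1 ± 7.99 CPM (−0.80, SE 0.51), in the same order. The groups overlapped in all 3.

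The same held for other maternal oocyte transcripts. Of 20 listed, 18 were tested and 0 passed, with 16 log2 fold changes below 0 and a median of −0.21. Over all genes tested 53.4% were below 0, with a median of −0.047. By limma-voom 11 of the 18 were below 0, with a replicate block 12 and by DESeq2 15. With 1 library left out between 10 and 16 of the 18 were below 0. The median was −0.048, with 10 below 0, without knockdown-labelled replicate 3, −0.14 without knockdown-labelled replicate 2, −0.34 without control replicate 1 and −0.13 without control replicate 2. Dppa3, a protector of maternal methylation and the most abundant of them, was at 35648 ± 6360 CPM in knockdown-labelled libraries and 36231 ± 4641 CPM in controls (log2 fold change −0.052, SE 0.14). Oosp1, an oocyte-secreted protein, was at 4113 ± 1070 and 4133 ± 821 CPM (−0.055, SE 0.20), and Btg4, an adaptor in maternal RNA decay, at 1396 ± 526 and 1547 ± 485 CPM (−0.20, SE 0.29), in the same order. Of the 9 other oocyte NLRP genes 8 were tested and 0 passed, with 5 below 0 and a median of −0.43. Without knockdown-labelled replicate 1 all 8 were below 0, with a median of −0.56. The median was −0.29 without knockdown-labelled replicate 4, −0.24 without control replicate 2 and −0.21 without control replicate 3. The most abundant 3 were Nlrp9c, Nlrp9a and Nlrp4a. Nlrp9c was at 1777 ± 570 CPM in knockdown-labelled libraries and 2162 ± 454 CPM in controls (−0.34, SE 0.23), Nlrp9a at 62.9 ± 27.9 and 107 ± 43.0 CPM (−0.83, SE 0.41) and Nlrp4a at 48.7 ± 33.2 and 44.5 ± 15.2 CPM (0.051, SE 0.46), in the same order. Near-identical copies among these genes can share reads.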

How the data were processed

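TRIzol extraction and the NEBNext Ultra RNA library kit are named in the labels' protocols. The sources used here do not name the strand setting, read length or annotation release. The authors deposited expected counts per gene, not normalised, and the submitters' processing notes list RSEM 1.2.28, STAR 2.7.3a, Trim Galore 0.6.10 and the build GRCm38 (mm10). RSEM divides reads that match several genes by estimation. No molecular identifiers are mentioned, so a count is not a molecule.

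Expected counts were rounded (4.22% were not whole) for the tests, and CPM came from deposited counts and library totals. filterByExpr (minimum count 10, total 15) left 13146 genes. Groups were compared with edgeR 4.0.16 in R 4.3.3 (TMM, robust quasi-likelihood test, group as the only term), with Benjamini-Hochberg adjustment over all genes tested and a threshold of 0.05. The procedure was tested on simulated data: it called most of the changed genes at a low spread between replicates, and did not call them at the common spread of these libraries. The changed genes were at 10 CPM or more, and every gene was given that common spread, a coefficient of variation of 0.987 as a fraction. Measured genes at 10 to 1000 CPM had lower median coefficients of variation, so the simulation does not show which changes could be called among them. Exon lengths and positions are from GENCODE M21, which held 95.8% of the symbols. No 2 libraries were duplicates (chi-square per degree of freedom of at least 54.2 in 28 pairs). Alternatives were DESeq2 1.42.0 and its size factors, upper-quartile scaling, library totals, other filters, limma-voom 3.58.1 with and without sample weights, a replicate block, thinning to the smallest library total, and leaving out libraries. The members, lists and tests were chosen with earlier results of these data known. Named genes are the 6 members, Polq, the 3 most abundant tested genes of each list and the 5 genes most like the members, of which 1 is not reported here; Gm20509 was added after its values were seen.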

Additional observations from a re-analysis of the deposited data

Results flagged for a closer look

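Padi6 in control replicate 4, at 24.1 CPM, stood apart from control replicates 1 to 3, which lay between 14.03 and 15.4 CPM. Its gap to the next library was 0.860 of the range of the 4 controls, above Dixon's 95% critical value for 4 samples. This was 1 of 14 groups examined (the 6 genes and Polq in each group), and chance marks about 1 in 20. Without that library the Padi6 log2 fold change was 0.049 in place of −0.11.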

How the results depend on the processing

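Over 114 refits of single genes of the complex the adjusted p was at least 0.583, and 0 passed. The direction turned in 25 of the 114. Ooep and Khdc3 kept a negative sign in every refit, from −0.77 to −0.12 for Ooep and from −1.05 to −0.028 for Khdc3. Khdc3 could not be tested with a filter of 5 CPM in 4 libraries. Zbed3 turned to 0.0076 with DESeq2 size factors, 0.035 with library totals, 0.023 with upper-quartile scaling, 0.012 with the stricter filter, 0.0075 with DESeq2 and 0.026 with thinned libraries. Limma-voom gave −0.37 for Tle6 and 0.13 for Padi6, and with sample quality weights −0.0036 for Nlrp5 and −0.057 for Tle6. Without the 3 shallow knockdown-labelled libraries, where the last library is assumed to vary like the controls, the log2 fold change was −1.18 for Tle6, 0.74 for Padi6 and 0.073 for Polq, and the median of the 6 was −0.33 in place of −0.064. The median over all genes tested was −0.36 in place of −0.047, but it covered 18664 genes in place of 13146. With 1 library left out the range was −0.096 to 0.18 for Nlrp5, −0.54 to 0.37 for Tle6, −0.57 to 0.14 for Padi6, −0.27 to 0.17 for Zbed3, −0.47 to −0.11 for Polq and −0.22 to 0.044 for the median of the 6. The causes of these shifts were not tested. The count of genes called was 0 in every setting but DESeq2, which called 20 (14 higher, 6 lower). The replicate numbers did not pair the libraries: deviations of same-numbered libraries correlated at −0.075 to 0.0085. Knockdown-labelled replicates 1, 3 and 4 each correlated best with a control of another number. The replicate block called 0 genes, with 293 in place of 369 at an unadjusted p under 0.05, and gave 0.012 for Nlrp5, 0.080 for Tle6, −0.48 for Ooep, −0.59 for Khdc3, −0.37 for Padi6, −0.024 for Zbed3, −0.38 for Polq and −0.20 for the median. Of 36 group means under other scalings 32 moved by less than 1 SD. Leaving mitochondrially encoded genes out of the totals moved the others: Nlrp5 to 67.1 CPM in knockdown-labelled libraries and 63.1 CPM in controls, and in controls Padi6 to 22.1 CPM and Zbed3 to 406 CPM. Counts were as low as 7 for Khdc3, 32 for Tle6 and 35 for Padi6 in a knockdown-labelled library. With every library thinned to the smallest total the log2 fold change was −0.60 for Khdc3, 0.21 for Tle6 and −0.35 for Padi6. In the fit at full depth these values were −0.34, 0.077 and −0.11. The part of depth in the spread of these genes was not tested.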

Other observations

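Relatives of these genes outside the complex were also measured. Of the other peptidylarginine deiminase genes, Padi1 and Padi3 had no count in any library, Padi2 stayed under the filter on low counts, and Padi4, tested in the same fit, was at 0.612 ± 1.15 CPM in knockdown-labelled libraries and 0.967 ± 1.497 CPM in controls (SD, n = 4 each). Among the Groucho relatives of Tle6, Tle4 was at 48.6 ± 3.40 CPM in knockdown-labelled libraries and 39.5 ± 13.8 CPM in controls (log2 fold change 0.28, SE 0.29), and all 3 tested members, Tle1 and Tle5 besides Tle4, had log2 fold changes above 0 (2 or 3 of them with 1 library left out) and 0 passed. Tle1 was at 4.85 ± 4.76 and 3.94 ± 1.95 CPM and Tle5 at 2.17 ± 2.57 and 0.981 ± 1.62 CPM, in the same order.

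Among KH-domain relatives, Dppa5a was at 1763 ± 527 CPM in knockdown-labelled libraries and 1285 ± 682 CPM in controls (0.45, SE 0.39), Khdc1b at 404 ± 42.2 and 409 ± 84.8 CPM (−0.060, SE 0.17) and Khdc1c at 59.2 ± 7.59 and 56.9 ± 6.80 CPM (0.022, SE 0.22), in the same order. Of the Zbed3 relatives, Zbed4 was at 19.8 ± 6.90 CPM in knockdown-labelled libraries and 27.3 ± 2.73 CPM in controls (−0.50, SE 0.36), and Zbed5 at 27.4 ± 16.5 and 32.3 ± 12.0 CPM (−0.24, SE 0.60). All 4 knockdown-labelled libraries (9.50 to 23.5 CPM) lay below all 4 controls (24.9 to 30.9 CPM) for Zbed4, where 2.78% of all genes tested had groups that did not overlap, and its edgeR adjusted p was 1.0. Of these relatives 0 passed the test.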
